A study of Mus musculus with 8 samples.

Results

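The JAK-STAT pathway genes described here are *Jak2*, the signal transducers *Stat3*, *Stat5a*, *Stat5b* and *Stat6*, the feedback inhibitors *Socs1*, *Socs2*, *Socs3* and *Cish*, and the kinase gene *Pim1*. They were taken as every probe set whose only gene symbol in the platform annotation was one of these names, which gave 20 probe sets of 10 genes among 22626 probe sets tested. The series used microarrays to look for genes through which TFF2, a secreted trefoil peptide, could limit the expansion of myeloid cells. All 8 cultures came from 4 male *Tff2*-/- mice on the C57BL/6 background, 16 weeks old, which had drunk 3% DSS, a colon irritant, for 5 days and were killed 14 days later. Splenic Cd11b+Gr1+ cells, the immature myeloid cells of the study, were sorted and the cells of each mouse were shared between a control culture (ctrl) and an rTFF2 culture (tr). Each culture lasted 7 days with GM-CSF (Csf2), at 5 nM by the labels. The study's methods give its dose in ng per ml, and the doses differ. The rTFF2 cultures also held 3 µM recombinant mouse Tff2. Every group therefore had GM-CSF, and no culture without it, without prior DSS, or from mice with an intact *Tff2* gene was part of the comparison. Each value is a GCRMA log2 signal, which is background-corrected and normalised between arrays, with n = 4 mice in each group.

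Cytokine receptors such as the GM-CSF receptor have no kinase of their own and carry JAK kinases, which phosphorylate the receptor and then STAT proteins. The STATs enter the nucleus and switch on target genes, and among the quickest of these are the SOCS genes, *Cish* and *Pim1*. SOCS proteins bind the receptor or the kinase and shut signalling down, so that their mRNA serves as a record of recent signalling as well as a brake on it. In myeloid cells GM-CSF acts mainly through JAK2 and STAT5, IL-6, G-CSF and IL-10 mainly through STAT3, and IL-4 and IL-13 through STAT6.

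STATs bind TTC and GAA letters set a few bases apart, and STAT6 prefers a wider gap than the others. Reference windows of 300 bases, 250 before and 50 from each gene's start, were found for 9 of the 10 genes (RefSeq, GRCm38.p6). These made 12 windows, as some genes had more than 1, and *Socs2* had none in the table used. The letters TTCNNNGAA, which read alike on both strands, occurred in windows of 2 of these 9 genes, *Cish* and *Socs3*. Over all 32851 windows the share was 8.30%, which is counted by window and not by gene. TTC and GAA with a gap of 4 bases, searched on both strands, occurred in windows of 0 of the 9 genes and in 6.95% of all windows. The *Cish* window held 2 copies, at bases 1 to 9 and 12 to 20 counted from the start, and 0.457% of all windows held 2 or more. They are shown because *Cish* and *Socs3* are the feedback genes whose windows hold the STAT letters while their signals behaved differently in the cultures. The *Cish* stretch lies on the plus strand at chr9:107296409-107296683 and reaches from base -250 to base 25. The *Socs3* stretch lies on the minus strand at chr11:117969502-117969530, bases -164 to -136. Capitals mark TTCNNNGAA.
Cish: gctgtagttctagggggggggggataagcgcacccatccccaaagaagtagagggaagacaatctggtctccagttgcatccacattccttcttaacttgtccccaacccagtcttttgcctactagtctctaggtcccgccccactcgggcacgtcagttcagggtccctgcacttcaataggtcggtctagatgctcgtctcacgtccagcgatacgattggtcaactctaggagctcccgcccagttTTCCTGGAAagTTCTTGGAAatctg
Socs3: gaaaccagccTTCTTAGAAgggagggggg
A match describes letters only, and STAT binding was not measured in these cultures.

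The cultures strongly expressed *Itgam*, which encodes CD11b, at 12.35 ± 0.20 (SD, n = 4) with GM-CSF and 12.72 ± 0.14 (SD, n = 4) with rTFF2. A probe set shared by *Ly6c1* and *Ly6c2*, part of the Gr-1 antigen, has several symbols and was not used. The control cultures differed widely in their neutrophil genes. The mean log2 signal over 13 neutrophil markers was 9.64, 10.60, 8.24 and 7.80 in the control cultures of mice 1 to 4, highest in mouse 2, and 11.26 to 11.57 in the rTFF2 cultures. The 3′ to 5′ difference of the *Actb* control probe sets, a sign of RNA integrity, also moved with the groups, from 0.42 to 0.62 in control cultures and from 0.66 to 0.74 in rTFF2 cultures. Both are set beside the results below.

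With rTFF2, 9 of the 10 genes changed, 6 higher and 3 lower, when each gene was represented by the brightest of its probe sets (limma with the mouse as a block, adjusted p under 0.05 over all probe sets). *Socs1*, *Socs3*, *Pim1*, *Stat3*, *Stat5b* and *Stat6* rose, *Socs2*, *Jak2* and *Stat5a* fell, and *Cish* did not pass. Over all genes tested 27.7% passed, 14.5% higher and 13.3% lower, and over genes with a mean above the background level of 2.96 the shares were 40.1%, 22.1% and 18.0%. By probe set, 16 of 20 passed, 11 higher and 5 lower. Over all probe sets 25.7% passed, 13.7% higher and 12.0% lower. Over those above the background level, which 18 of the 20 exceeded, 38.1% passed, 21.2% higher and 16.8% lower. Sizes of the 16 lay between 0.34 and 1.84 on the log2 scale with a median of 0.75, against a median of 0.49 over all probe sets that passed, and only 1 probe set, of *Socs3*, changed more than 2-fold. In 15 of 20 probe sets the signals of the 4 control and the 4 rTFF2 arrays did not overlap, as in 25.5% of all probe sets and 34.1% of those above the background level. The genes were chosen with earlier results of these data known, so these shares are a description.

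Without both cultures of mouse 2, whose control culture had the highest neutrophil signal, 15 of the 16 calls remained. Without mouse 1, 3 or 4, 14, 13 and 15 of them remained. The control cultures of those mice also lay below the rTFF2 cultures in neutrophil signal. Leaving out a mouse therefore does not separate the neutrophil genes from the groups, and their part was not tested. With the *Actb* 3′ to 5′ difference as a covariate, which leaves 2 residual degrees of freedom and nearly follows the groups, 5 of the 16 calls remained. They were 1 probe set each of *Socs2*, *Pim1* and *Jak2* and 2 of *Socs3*. Among the other pathway genes named below, the calls of *Birc5*, *Ccnd2*, *Csf2ra*, *Csf3*, *Il4*, *Il4ra*, *Jak1*, *Jak3*, *Pias3*, *Ptpn2*, *Socs5*, *Socs7*, *Stat4* and *Tyk2* were also lost with this covariate (adjusted p = 0.067 to 0.54). For *Il6st*, *Lifr*, *Id1*, *Mrc1*, *Ccl24* and *Stat2*, also named below, the result with the covariate is not given here. The part of RNA integrity in these calls was not tested further.

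**Figure D1:**
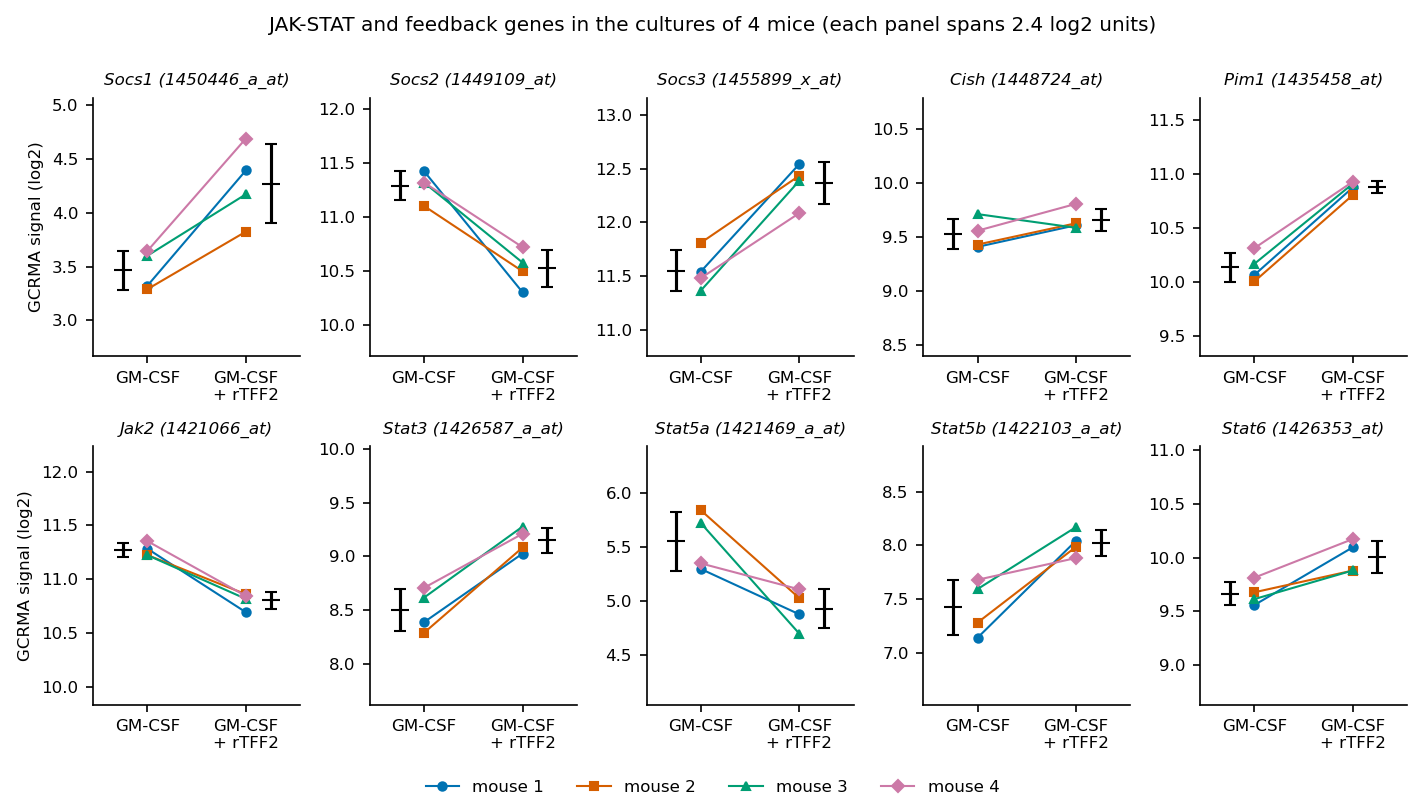
GCRMA signal (log2, y axis) of the 10 genes, each by its brightest probe set, in the GM-CSF and GM-CSF plus rTFF2 cultures of 4 mice. Lines join the cultures of a mouse, bars give mean and SD of n = 4, and every panel spans the same range of 2.4 log2 units. *Pim1* rises and *Jak2* falls by a similar amount in each mouse, while the lines of *Cish* cross.

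*Socs3* encodes the inhibitor that attaches to gp130-type receptors and blocks STAT3 signalling. Its probe set 1416576_at had signals of 7.01, 7.15, 7.10 and 6.98 with GM-CSF and 8.99, 8.79, 8.76 and 9.06 with rTFF2 in mice 1 to 4. The groups lay 1.61 apart at their nearest arrays, the widest gap of the 20 probe sets. The log2 difference was 1.84 (standard error 0.10, adjusted p = 1.2e-04), a 3.57-fold rise.

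The other *Socs3* probe sets, whose names mark probes that may bind related sequences, gave smaller differences. For 1455899_x_at the signals were 11.54, 11.81, 11.37 and 11.48 with GM-CSF and 12.54, 12.43, 12.39 and 12.09 with rTFF2, a difference of 0.81 (standard error 0.10, adjusted p = 0.0016). For 1456212_x_at the difference was 0.89 (standard error 0.12, adjusted p = 0.0026). Within a mouse, 1416576_at rose by 0.64 to 1.48 more than 1455899_x_at, in 4 of 4 mice. The direction was thus shared by the 3 probe sets and the size was not settled by them.

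*Socs1* encodes the inhibitor of JAK kinases best known for limiting interferon-γ and IL-4 signalling. It was dim, close above the background level of 2.96, with signals of 3.32, 3.29, 3.60 and 3.65 in the control cultures and 4.39, 3.82, 4.17 and 4.69 with rTFF2. Every rTFF2 culture lay above every control culture. The difference was 0.80 (standard error 0.11, adjusted p = 0.0030), 1.75-fold. With 32 added to every unlogged signal (an offset of 32), it was 0.26 (adjusted p = 0.040). With the *Actb* covariate the adjusted p was 0.050.

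*Socs2*, a STAT5 target whose product restrains growth hormone signalling, went the opposite way. Its probe set 1449109_at fell from 11.42, 11.10, 11.32 and 11.32 to 10.30, 10.49, 10.57 and 10.72, with no overlap. The difference was -0.77 (standard error 0.10, adjusted p = 0.0023), a 1.70-fold fall, and mouse 1 fell most, by 1.12 on the log2 scale. The second probe set, 1418507_s_at, gave -0.94 (standard error 0.09, adjusted p = 6.2e-04). In each mouse *Socs3* (1455899_x_at) and *Socs2* (1449109_at) parted, by 1.20 to 2.12 on the log2 scale.

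*Cish*, the founding member of the SOCS family and a close relative of *Socs2*, is likewise induced through STAT5. Its signals were 9.41, 9.43, 9.71 and 9.56 with GM-CSF and 9.61, 9.63, 9.58 and 9.81 with rTFF2. The groups overlapped and mouse 3 went down while the other mice went up. The difference was 0.13 with a 95% interval from -0.07 to 0.33 (adjusted p = 0.31), so a fall as large as that of *Socs2* lies outside the interval. Without mouse 3 it was 0.22 (adjusted p = 0.13). Within a mouse the change of *Cish* exceeded that of *Socs2* by 0.62 to 1.32, in 4 of 4 mice. This pair and the others set side by side in the plot of paired changes, 5 in all, were chosen after their values were seen and are given without a test.

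*Pim1* encodes a serine kinase that promotes survival and growth and is transcribed in response to STAT3 and STAT5. Its probe set 1435458_at had signals of 10.06, 10.00, 10.17 and 10.31 with GM-CSF and 10.88, 10.81, 10.91 and 10.93 with rTFF2. The 4 mice rose by nearly the same amount, 0.62 to 0.81. The difference was 0.74 (standard error 0.07, adjusted p = 6.8e-04), 1.68-fold. Probe set 1423006_at gave 0.75 (standard error 0.13, adjusted p = 0.0072) with more spread between mice, from 0.46 to 1.23. Of the other Pim kinases, *Pim2* (3.24 ± 0.08 against 3.40 ± 0.17) and *Pim3* (7.88 ± 0.45 against 7.84 ± 0.24, SD, n = 4) did not pass (adjusted p = 0.16 and 0.82).

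**Figure D2:**
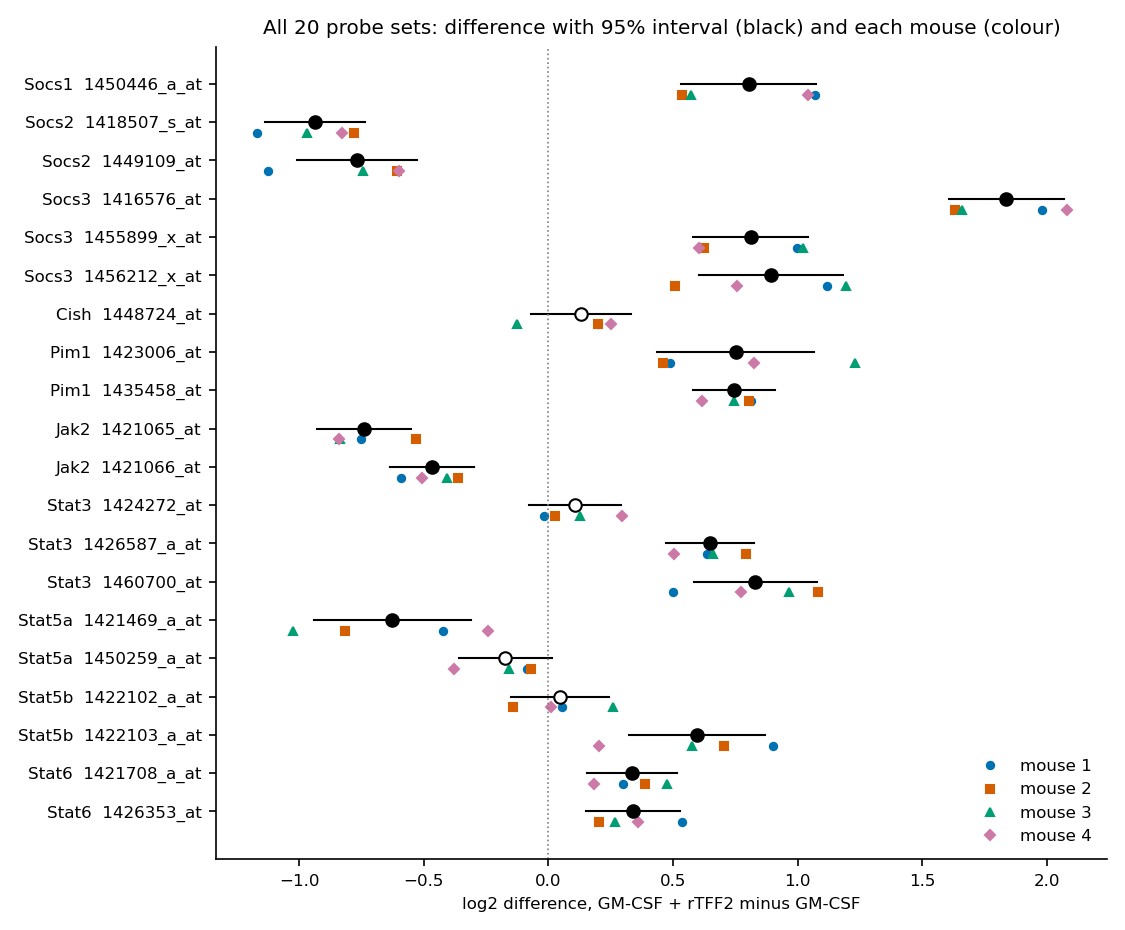
Log2 difference (x axis, GM-CSF plus rTFF2 minus GM-CSF) of all 20 probe sets, with black bars for the 95% interval of the fit, filled circles for adjusted p under 0.05 and coloured symbols for each mouse. *Socs3* 1416576_at stands at 1.84, the other higher probe sets that passed lie between 0.34 and 0.89, the lower ones that passed between -0.94 and -0.47, and the 4 that did not pass between -0.17 and 0.13.

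*Jak2* encodes the kinase bound to the GM-CSF receptor. Its probe set 1421066_at fell from 11.28, 11.23, 11.22 and 11.35 to 10.69, 10.86, 10.82 and 10.85 in mice 1 to 4. The groups did not overlap, and the difference was -0.47 (standard error 0.07, adjusted p = 0.0041), a 1.38-fold fall. Probe set 1421065_at gave -0.74 (standard error 0.08, adjusted p = 0.0011).

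Of 5 other JAK and STAT genes measured, 3 were called higher and 2 lower, while of all genes 14.5% were higher and 13.3% lower. Over genes above background the shares were 22.1% and 18.0%. Of the 3 called higher, *Jak3* was below background on every array and is not counted as a rise. *Jak1*, which serves interferon and gp130-type receptors, rose by 0.31 (standard error 0.07, adjusted p = 0.022), and its other probe sets gave 0.66 (adjusted p = 0.0034) and 0.13 (adjusted p = 0.44). *Tyk2*, a partner of *Jak1* at interferon receptors, was lower by 0.35 on the log2 scale (adjusted p = 0.026), and did not pass without the mouse as a block (adjusted p = 0.11). For *Jak1* the call was lost without mouse 1, 2 or 3 (adjusted p = 0.095, 0.059 and 0.065), and for *Tyk2* without mouse 1 or 3 (0.092 and 0.090).

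*Stat5a*, *Stat5b* and *Stat3* stand next to each other on chromosome 11 in this order: *Stat5b*, *Stat5a*, *Stat3*. *Stat5a* and *Stat5b* encode closely related proteins that both carry GM-CSF signals, and their signals moved apart. *Stat5a* (1421469_a_at) had 5.29, 5.84, 5.72 and 5.35 with GM-CSF and 4.87, 5.02, 4.69 and 5.10 with rTFF2, all rTFF2 values below all control values. The difference was -0.63 (standard error 0.13, adjusted p = 0.014). It ranged over the mice from -0.24 in mouse 4 to -1.03 in mouse 3, and without mouse 3 it was -0.49 (adjusted p = 0.051).

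*Stat5b* (1422103_a_at) had 7.14, 7.28, 7.60 and 7.68 with GM-CSF and 8.04, 7.99, 8.17 and 7.88 with rTFF2. No arrays of the groups overlapped, and the difference was 0.60 (standard error 0.12, adjusted p = 0.0099). The change of *Stat5b* exceeded that of *Stat5a* by 1.32, 1.52 and 1.60 in mice 1 to 3 and by 0.44 in mouse 4. A second probe set of each gene was at or near the background level and did not pass, with -0.17 for *Stat5a* (1450259_a_at, adjusted p = 0.16) and 0.05 for *Stat5b* (1422102_a_at, adjusted p = 0.73).

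*Stat3*, which carries signals of IL-6, IL-10 and G-CSF, rose in both of its measurable probe sets. For 1426587_a_at the signals were 8.39, 8.29, 8.62 and 8.71 with GM-CSF and 9.03, 9.08, 9.28 and 9.21 with rTFF2. The groups were 0.32 apart and the difference was 0.65 (standard error 0.07, adjusted p = 0.0014), 1.57-fold. Probe set 1460700_at gave 0.83 (standard error 0.10, adjusted p = 0.0019). The third, 1424272_at, lay under the background level on all 8 arrays.

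*Stat6*, which carries IL-4 and IL-13 signals, had the smallest of the changes that passed. Its probe set 1426353_at had 9.56, 9.68, 9.61 and 9.81 with GM-CSF and 10.10, 9.88, 9.88 and 10.17 with rTFF2. The difference was 0.34 (standard error 0.08, adjusted p = 0.020) and every mouse rose, while 1421708_a_at gave 0.34 as well (standard error 0.08, adjusted p = 0.018). These calls were fragile. The first did not pass without mouse 1, 3 or 4 (adjusted p = 0.085, 0.056 and 0.070), the second not without mouse 1, 2 or 3 (0.059, 0.054 and 0.076) nor without the block (0.050). Of the STATs outside these 10 genes, *Stat4*, the IL-12 responsive factor, rose by 0.43 (adjusted p = 0.012 with the block, 0.12 without). *Stat2*, named after its value was seen, was lower by 0.32 (adjusted p = 0.027 with the block, 0.16 without).

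**Figure D3:**
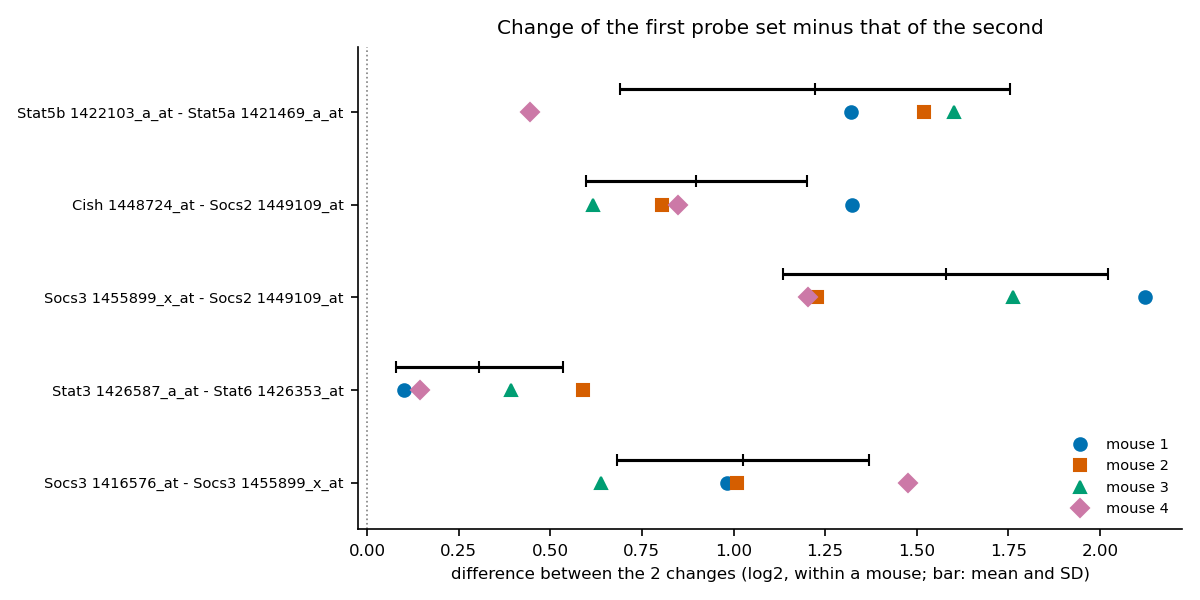
Difference between the changes of 2 probe sets in the same mouse (x axis, log2, first named minus second named), with 1 symbol per mouse and bars for mean and SD over the 4 mice. All symbols lie above 0, from 0.10 for *Stat3* over *Stat6* in mouse 1 to 2.12 for *Socs3* over *Socs2* in mouse 1.

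Of 13 further SOCS, PIAS and phosphatase genes, 1 was called higher and 3 lower, with a median of 0.05 against -0.03 over all genes, of which 14.5% were called higher and 13.3% lower. Over genes above background the shares were 22.1% and 18.0%. Of the 3 called lower, *Socs7* was below background on every array and is not counted as a fall. *Pias3*, whose product binds STAT3 and inhibits it, rose by 0.80 (standard error 0.13, adjusted p = 0.0045), while its dimmer probe set gave 0.14 (adjusted p = 0.33). *Socs5* fell by 1.04 (standard error 0.12, adjusted p = 0.0012), from 9.02, 8.79, 8.68 and 8.50 to 7.55, 7.80, 7.85 and 7.63, while its dimmer probe set gave -0.21 (adjusted p = 0.29). *Ptpn2*, a phosphatase of JAK1 and STAT proteins, was lower by 0.25 on the log2 scale (adjusted p = 0.040). That call was lost without any single mouse (adjusted p = 0.070 to 0.13), and the other 3 probe sets of the gene did not pass, at -0.15, 0.41 and 0.25 (adjusted p = 0.17, 0.061 and 0.089), so that 2 of them pointed the other way. *Ptpn6*, the phosphatase SHP-1, was at 0.01 and did not pass (adjusted p = 0.92).

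Among 9 measured cytokines that signal through JAKs, 3 rose and none fell, while of all genes 14.5% were called higher and 13.3% lower. *Il6*, a cytokine of the STAT3 arm, rose in 4 of 4 mice, from 5.96, 5.26, 7.85 and 7.75 to 8.73, 8.88, 10.09 and 9.70. The difference was 2.64 (standard error 0.25, adjusted p = 6.6e-04), 6.24-fold. With the *Actb* covariate it was 1.47 (adjusted p = 0.0058). *Csf3*, which encodes G-CSF, and *Il4* were below background in the control cultures and reached it in 3 and 2 of the 4 rTFF2 cultures, so that they were at least 1.14-fold and 1.05-fold higher (adjusted p = 0.0018 and 0.014). *Il4* did not pass without mouse 4 (adjusted p = 0.062), with the offset of 32 (0.096) or with the *Actb* covariate (0.54), and *Csf3* not with the covariate (0.067). *Csf2*, the gene of the added GM-CSF, and *Il10* lay below background in both groups.

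Of 18 receptor chains, 10 rose and 2 fell, with a median difference of 0.43, while 22.1% of all genes above background were called higher and 18.0% lower. The largest rise was that of *Csf3r*, the G-CSF receptor, from 6.15, 7.01, 5.49 and 5.64 to 8.82, 8.64, 8.08 and 8.31, a difference of 2.39 (standard error 0.18, adjusted p = 3.3e-04). *Csf3r* is also a neutrophil marker. *Ifngr1* and *Ifngr2*, the chains of the interferon-γ receptor, rose by 1.15 (adjusted p = 1.4e-04) and 0.85 (adjusted p = 4.7e-04), and *Il10rb*, a shared chain of IL-10 type receptors, by 1.02 (adjusted p = 2.7e-04). *Il6st*, which encodes gp130, fell by 0.91 (standard error 0.08, adjusted p = 6.6e-04) and *Lifr*, its partner for LIF, fell by 1.83 (standard error 0.24, adjusted p = 0.0023). Both were named after their values were seen. Of the GM-CSF receptor, the α chain gene *Csf2ra* was higher by 0.45 in its brighter probe set (adjusted p = 0.033 with the block, 0.058 without), a call lost without mouse 1, 3 or 4 (adjusted p = 0.10, 0.092 and 0.082). Its dimmer probe set gave 1.08 (adjusted p = 0.0082). The β chain gene *Csf2rb*, whose probes may also bind its near copy *Csf2rb2*, was at 0.16 and did not pass (adjusted p = 0.13), although its groups did not overlap and it passed with the offset of 32 (0.020) and with a trended and robust prior (0.024). *Il2rg* was not analysed here. *Il2ra*, which fell, is outside these 18 and is counted below among the STAT5 targets. *Il4ra* is counted here and again among the STAT3 targets.

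Textbook targets of the STATs outside these 10 genes were counted by arm, with all lists chosen when earlier results were known. Of all genes above background, 22.1% were called higher and 18.0% lower. Of 7 further STAT5 targets, 1 rose and 4 fell (median -1.03). *Il2ra*, the IL-2 receptor α chain, fell from 8.34, 7.00, 7.73 and 7.69 to 3.92, 3.89, 4.04 and 4.55, a 12.0-fold fall. Its other probe set gave -2.91, and with the offset of 32 the difference was -2.28 (adjusted p = 0.010). *Ccnd1* and *Ccnd2*, which encode D-type cyclins and are thus also cell cycle genes, fell by 3.04 and 1.03. *Bcl6*, which STAT5 represses in lymphocytes, fell by 1.22 (adjusted p at most 0.0013 for *Il2ra*, *Ccnd1*, *Ccnd2* and *Bcl6*). *Id1* rose by 0.74. Of 8 STAT3 targets, 5 rose and 1 fell (median 0.76). Without the block 4 rose and 1 fell, and with the probe sets of each gene averaged 6 rose and 1 fell. *Bcl3* rose from 5.36, 5.48, 5.45 and 5.60 to 6.75, 6.92, 6.94 and 6.84 (difference 1.39, standard error 0.07, adjusted p = 1.1e-04), *Junb* rose by 0.92 and *Il4ra* by 0.69, while *Birc5*, which is also a mitotic gene, fell by 0.86.

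Of 10 STAT6 targets, 3 were called higher and 3 lower (median 0.17), against 14.5% and 13.3% of all genes. Over genes above background the shares were 22.1% and 18.0%. The targets called higher were *Retnla*, *Mrc1*, which encodes the mannose receptor, at 1.74, and *Ccl24*, which was below background on every array and is not counted as a rise. The chemokine genes *Ccl17* and *Ccl22* fell by 3.34 and 3.03 and the lectin gene *Mgl2* by 2.55. *Retnla* rose by 2.33, from 5.51, 2.62, 7.09 and 7.29 to 7.67, 5.30, 9.22 and 9.64. Its groups overlapped because the mice differed widely, and without the block it did not pass (adjusted p = 0.20). With the offset of 32 it was 1.64 (adjusted p = 0.021). Each of these 3 target lists held genes that rose and genes that fell. *Bcl6*, a gene STAT5 represses in lymphocytes, is counted among the falls of STAT5 targets, so these counts do not measure STAT activity.

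**Figure D4:**
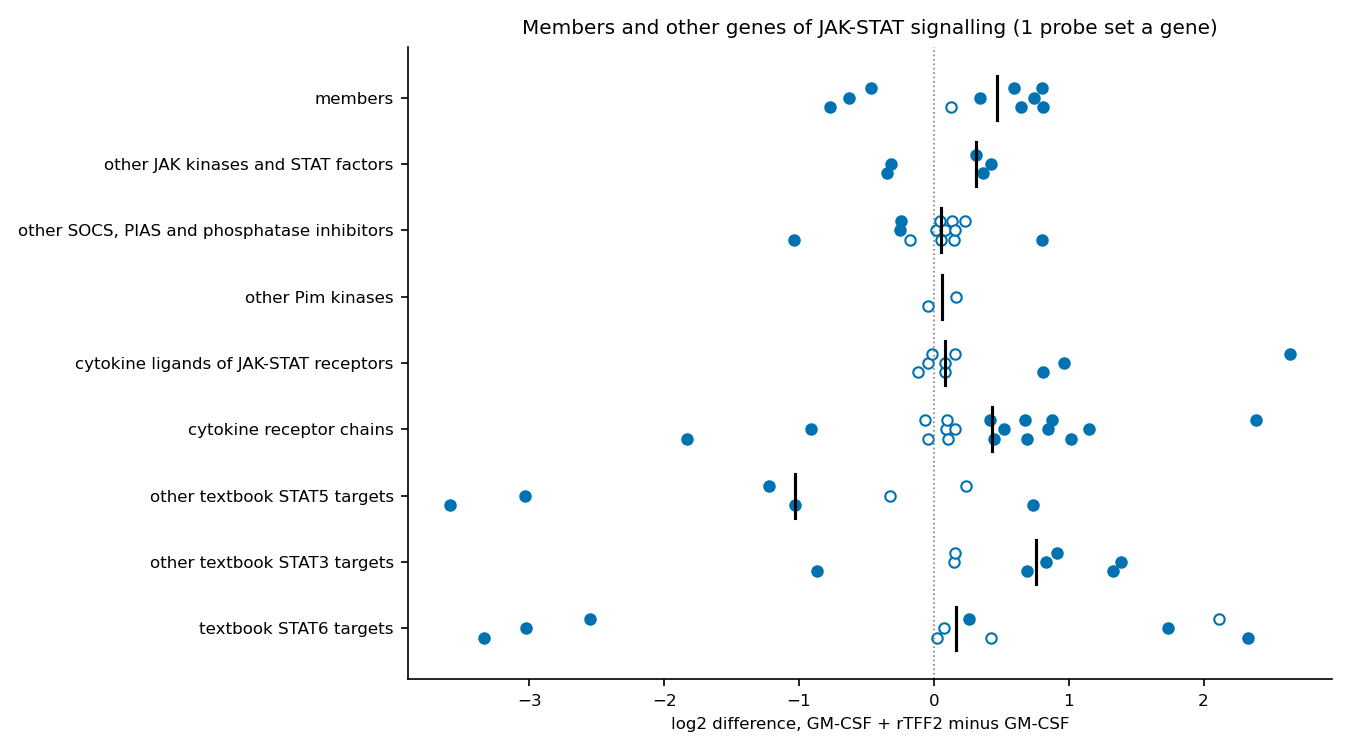
Log2 difference (x axis, GM-CSF plus rTFF2 minus GM-CSF) of the 10 genes (members) and of 8 other lists of JAK-STAT signalling, 1 point a gene, filled where the adjusted p was under 0.05, with a black line at each list's median. The medians are -1.03 for the further STAT5 targets and 0.76 for the STAT3 targets.

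Markers of several cell types moved with the groups, and in these bulk cultures a change in the number of cells of a type cannot be told apart from a change in RNA per cell. All 13 measured neutrophil markers rose (median 2.49), while 14.5% of all genes were called higher and 13.3% lower. Over genes above background the shares were 22.1% and 18.0%. Of 9 basophil and mast cell markers 6 rose, with the mast cell protease genes *Cma1*, *Tpsb2* and *Mcpt4* below background, of 5 eosinophil markers 3 rose, and of 10 dendritic cell and MHC class II markers 9 were called lower (median -1.81), among them *Cd209a*, which was below background on every array. The mean log2 signal of these 10 markers was 8.71 to 9.17 in control cultures and 6.86 to 7.35 with rTFF2. Of 9 macrophage markers 3 rose and 3 fell, and their mean signal was 9.62 to 10.47 and 9.49 to 10.03. The lymphoid and erythroid lists were near background, with 2 of 8 markers of T and NK cells, 1 of 7 of B cells and 1 of 6 of erythroid cells above it. In these lists 1, 1 and 0 genes fell and none rose. The genes of the 10 that passed differed between the same groups as these markers, while *Cish* did not pass. The part of the cell mixture in these differences was not tested.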

How the data were processed

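Total RNA of 8 cultures was hybridised by the authors to Affymetrix mouse expression arrays, 1 per culture. The authors deposited log2 signals computed with GCRMA (GCRMA 2.30.0 and affy 1.36.0 in the submitters' processing notes) and were used without renormalisation, so the scanner files and their background correction were not re-examined. The file holds 22690 probe sets, of which 64 array controls were left out. Symbols came from the platform annotation, and for 20 of 20 member probe sets the gene identifier had the same symbol in RefSeq. Groups and mouse numbers came from the sample labels.

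Differences were fitted with limma 3.58.1 (R 4.3.3) with the mouse as a block and Benjamini-Hochberg adjustment over 22626 probe sets, at a threshold of 0.05. The study's methods name limma without stating a block, and state that every mouse supplied both of its cultures, which is why mouse numbers pair the arrays. As a check, the deviation of each array from its group mean was correlated within a mouse, giving 0.05, 0.53, 0.31 and 0.39 for mice 1 to 4 over 13817 probe sets above background. Between different mice it was -0.54 to 0.33. The control arrays of mice 1 and 3 correlated better with another mouse (0.12 and 0.33) than with their own. The pairing thus rests on the design and on the shared replicate numbers, not on these correlations. The background level of 2.96 is the 95th percentile of the mean signals, over all arrays, of 39 genes specific to other tissues. Lists used 1 probe set a gene, the one with the highest mean, and were not given a set test. Every probe set of the 10 genes was described. Of other pathway lists, up to 4 genes that passed with the smallest adjusted p were named, with *Csf2ra*, *Csf2rb*, *Jak1*, *Tyk2*, *Pim2* and *Pim3* whatever their values. Other genes are examples chosen after their values were seen. The genes, lists and rules were chosen with earlier results of these data known. 1 item of these lists is not reported here. The fit was tested on simulated data first. Alternatives were a fit without the block, a filter on dim probe sets, quantile normalisation, an offset of 32 added before taking logs, median centring, array weights, a trended and robust prior, the *Actb* covariate, leaving out each mouse, and averaging the probe sets of each gene. Arrays correlated at 0.998 at most, so none appeared to be present more than once. With 4 mice, the number of arrays limits precision.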

Additional observations from a re-analysis of the deposited data

Results flagged for a closer look

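In 4 of 110 groups of 4 arrays, over the 20 probe sets of the 10 genes and 35 other pathway genes, 1 value stood far from the other 3, where chance gives about 1 in 20. None of the 4 was a probe set of the 10 genes. *Bcl6* was 8.20 in the rTFF2 culture of mouse 2 and 7.46 to 7.58 in the others. *Csf2rb* was 12.97 in the rTFF2 culture of mouse 2 and 13.12 to 13.14 in the others. In the control culture of mouse 2, *Psmb9* was 9.68 against 10.34 to 10.45 and *Tyk2* was 8.09 against 8.52 to 8.60. The 4 values came from the control and the rTFF2 culture of mouse 2.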

How the results depend on the processing

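Of 238 values of the 20 probe sets under the alternatives, 216 kept their direction and their side of the threshold. With the *Actb* 3′ to 5′ difference as a covariate 1588 probe sets passed over the whole array, 829 higher and 759 lower, and 5 of the 20 probe sets, 3 higher and 2 lower. The log2 differences that then did not pass were 1.04 for *Socs1*, -0.81 for *Socs2* 1449109_at, 0.92 for *Socs3* 1455899_x_at, 0.64 for *Pim1* 1435458_at, -0.55 for *Jak2* 1421066_at, 0.48 and 0.66 for *Stat3* 1426587_a_at and 1460700_at, -0.43 for *Stat5a* 1421469_a_at, 0.33 for *Stat5b* 1422103_a_at, and 0.27 and 0.43 for *Stat6* 1421708_a_at and 1426353_at. The fit has fewer residual degrees of freedom, and the cause was not tested. Without the replicate block 4927 probe sets passed and 15 of the 20, with *Stat6* 1421708_a_at at 0.34 (adjusted p = 0.050) as the call lost. Of other JAK and STAT genes 0 were then lower in place of 2, and 2 genes each of the T and NK cell and B cell lists were lower in place of 1. With the offset of 32, *Stat5a* 1421469_a_at was at -0.34 and did not pass. When probe sets were averaged within genes, 1 further inhibitor gene was lower in place of 3. After median centring the dim *Stat5b* probe set 1422102_a_at went to -0.0020. Centring also moved the share of higher calls over the array from 53.3% to 42.3%, and all 16 calls of the 10 genes remained.

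When each mouse was left out in turn, between 3609 and 5006 probe sets passed (2016 to 2708 higher, 1593 to 2298 lower; fewest without mouse 1, and 3791 without mouse 3), and 13 to 15 of the 20. The log2 difference of *Stat5a* 1421469_a_at then ranged from -0.75 to -0.49, *Stat6* 1421708_a_at from 0.29 to 0.39, *Stat6* 1426353_at from 0.28 to 0.39 and *Stat5b* 1422102_a_at from -0.025 to 0.11. *Pim3* ranged from -0.15 to 0.075.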

Other observations

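For each of the 10 genes the gene with the most similar signal over the 8 arrays was looked up among 7991 others above background in at least 1 group. The correlations are a description over 8 arrays that share groups and mice. The closest was *Apoc2*, an apolipoprotein gene, for *Stat3* (Pearson r = 0.998), followed by *Numb*, an adaptor that limits Notch signalling, for *Pim1* (0.998). *Jak2* was most like *Tnfsf8*, which encodes CD30 ligand and had a log2 difference of -2.81, with r = 0.993, and *Socs3* most like *Tlr4*, the receptor of endotoxin, with 0.993 and a log2 difference of 0.74. *Stat5b* paired with *Slc22a4* (0.993), *Socs1* with *Chd8* (0.991), *Socs2* with *Cep57l1* (0.990), *Stat6* with *Ppox* (0.978), *Cish* with *Prkcsh* (0.972) and *Stat5a* with *Dhodh* (0.970).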
